A study of Mus musculus with 24 samples.

Results

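Adrenal glands without tumor from MYCN-transgenic mice (AGM, 5 libraries) were compared with glands of Cre-negative mice (AG, 3 libraries), which are 8 of the 24 libraries of the series. The libraries were chosen by the group that their column names give in a table of protein-coding genes. AGM mice carried 1 copy of a human MYCN transgene behind a stop cassette at Rosa26 and a Cre recombinase driven by the Dbh promoter (MYCN +/-, CRE +), were backcrossed to C57Bl6/N and were kept for a full year without tumor. AG mice lacked Cre (CRE -) and are called wildtype in the study, and their age was not given in the sources used here. Dbh is expressed in noradrenergic and chromaffin cells, so that the recombination was aimed at the medulla, while most of a dissected gland is cortex. The other 16 libraries were neuroblastoma tumors. They were used here for an alternative estimate of the spread, to define genes with extreme values and in counts of genes beside those of the glands. The labels place the AG samples in sequencing run 1 and the AGM samples in run 2, so that run and genotype cannot be told apart.

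The adrenal gland joins 2 endocrine tissues. Its cortex makes aldosterone, corticosterone and related steroids from cholesterol under the control of ACTH and angiotensin. Its medulla holds chromaffin cells, which descend from the neural crest, synthesize catecholamines from tyrosine and store them in granules with granins and neuropeptides. MYCN is a basic helix-loop-helix transcription factor that pairs with MAX, binds E-box sequences and is known for driving ribosome synthesis, nucleotide synthesis and cell division in neuroblasts, the cells from which neuroblastoma arises.

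Expression was given as FPKM, that is, fragments per kilobase of a gene and per 1e+06 fragments of a scaled library size. Multiplied back by length and library size, the values returned whole numbers for 100% of entries, which are called counts here. The study adjusted its mouse reads for a batch effect with ComBat-seq, so these counts are adjusted values and no measure of sequencing depth. AG libraries summed to between 17434796 and 17893013 counts and AGM libraries to between 116740738 and 1170004708, of which 86.15% to 98.58% fell in 126 genes that exceeded 1000 FPKM in at least 1 of the 24 libraries. Outside these genes the 8 libraries held between 16168851 and 23683176 counts. Libraries of a group correlated at Pearson r = 0.979 to 0.995 in AG and 0.798 to 0.962 in AGM across tested genes (log2 scale), against 0.429 to 0.634 between groups, and genes are not independent points. AGM libraries 4 and 5 (r = 0.962 with each other) stood apart from AGM libraries 1 to 3 (r = 0.798 to 0.887) on the second principal component, which took 13.6% of the variance. The Y-linked genes Ddx3y and Uty were at 0 in all 8 libraries, and the largest value of Eif2s3y or Kdm5d was 0.0326 FPKM, in AGM library 1.

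Among the glands, very large values were seen in AGM alone. The highest AG value was 631 FPKM, whereas 85 genes exceeded 1000 FPKM in at least 1 AGM library (22, 31, 28, 45 and 53 genes in AGM libraries 1 to 5). Of these, 75 had at most 10 counts in every AG library. Of the same 85, 12 also exceeded 1000 FPKM in a tumor library with both the IGF2BP1 and MYCN transgenes. Each tumor library with both transgenes held between 10 and 28 genes above 1000 FPKM, and those with IGF2BP1 alone held none. Of the 85, 40 exceeded 1000 FPKM in 1 AGM library and 13 in all 5, and 43 had at most 10 counts in another AGM library. The 6 with the largest AGM medians, which had at most 1 count in any AG library, are described here without a test. Notum, a secreted carboxylesterase that removes the lipid from Wnt proteins, was at 0.00387, 0.00394 and 0.00391 FPKM in AG and 47400, 18500, 39700, 133000 and 144000 FPKM in AGM. Cpb1, a pancreatic carboxypeptidase, was at 0.00284, 0.00289 and 0.00287 FPKM in AG and 33400, 42700, 58000, 36400 and 28300 FPKM in AGM. All 5 AGM libraries were high for both genes.

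Nr0b2, an orphan nuclear receptor known from liver bile acid control, stood at 0.00823, 0.00839 and 0.00832 FPKM in AG and 35400, 27300, 28700, 45500 and 47900 FPKM in AGM. Cckar, the cholecystokinin A receptor, was at 0.00253, 0.00258 and 0.00256 FPKM in AG and 27100, 15900, 33900, 22200 and 19500 FPKM in AGM. Calcr, the calcitonin receptor, was listed at 0 in all 3 AG libraries and at 14800, 68400, 22100, 16300 and 7660 FPKM in AGM. Klk1, a tissue kallikrein, was at 0.00865, 0.00882 and 0.00875 FPKM in AG and 0.0114, 12300, 24500, 10300 and 28100 FPKM in AGM, so that AGM library 1 was near the AG level. Higher values still were reached in 1 or 2 libraries. Ninj2 was at 12300000 FPKM in AGM library 3 and at 0.0127 FPKM or 0 in the other 4. Slc17a1, a renal phosphate transporter gene, was at 1090000 and 2660000 FPKM in AGM libraries 4 and 5 and at 0 in the other AGM libraries and in AG. Ankrd7 (1070000 FPKM in AGM library 5), Tex29 (533000 and 603000 FPKM in AGM libraries 2 and 5) and Gm8126 (347000 FPKM in AGM library 1) were likewise high in few libraries, being at or near 0 elsewhere. A single gene took between 32.9% and 78.9% of the counts of an AGM library, and at most 1.07% in AG.

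The split between few and many counts was seen at lower levels too. In all, 396 genes had exactly 1 count in each of the 3 AG libraries, and 197 of them had a median of at least 1 FPKM in AGM. By contrast, 4613 genes had 0 counts in each AG library, and 8 of these had such a median. Of 95 genes with at most 10 counts in every AG library and at least 1000 in every AGM library, 93 were also at 10 counts or fewer in every tumor library with the IGF2BP1 transgene alone, a group whose labels give run 1 for 6 samples, run 2 for 1 and run 3 for 1. Conversely, 5 genes (Matn4, Prg2, Klra4, Klra7 and Acox2) had at most 10 counts in every AGM library and at least 1000 in every AG library. Run and genotype coincide with this split, and the part of the batch adjustment in it was not tested. A gene with 10 counts or fewer in every AG library is marked as such beside its value below.

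**Figure D1:**
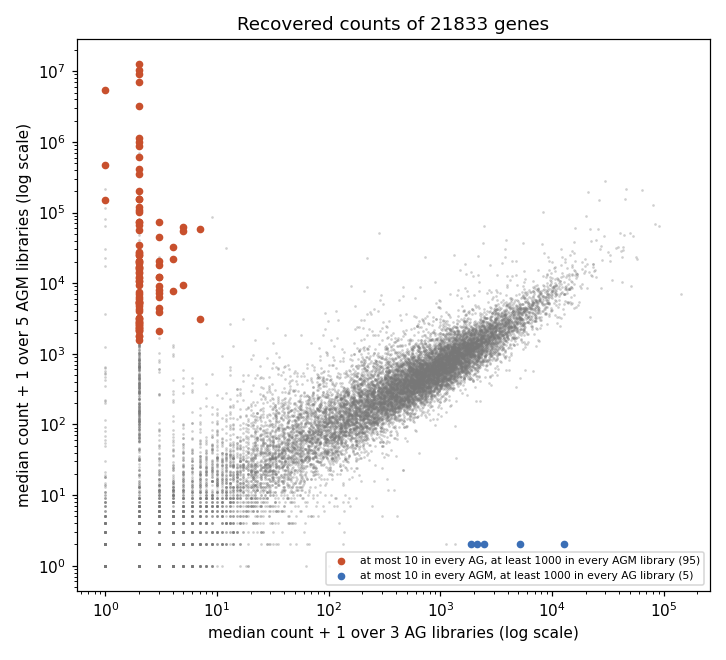
Median recovered count plus 1 of each gene over the 3 AG libraries (x axis) and the 5 AGM libraries (y axis), both on log scales. Red points are the 95 genes with at most 10 counts in every AG library and at least 1000 in every AGM library, most of which lie on the line of 1 count in AG, and blue points are the 5 genes with the opposite split.

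The comparison of AGM with AG was fitted with limma on log2(FPKM + 1) for the 8097 of 21833 genes that reached 1 FPKM in 3 or more of the 8 libraries. The threshold was an FDR below 0.05 after Benjamini-Hochberg adjustment over all of them, and p-values measure only the spread between these libraries. In AGM 2434 genes (30.1%) were higher and 2720 (33.6%) lower, together 63.7% of the genes tested. Of these, 770 genes (9.51% of those tested) were higher and 164 (2.03%) lower by a log2 fold change of 1 or more, together 11.5%. Groups did not overlap for 63.2% of the genes. The fit that took the spread from all 24 libraries called 2979 genes, and scaling to counts outside the 126 extreme genes shifted the median of all genes from -0.01 to -0.35 and left 1329 genes higher and 4253 lower. Of the 770 large rises, 240 were genes with at most 10 counts in every AG library, and 519 had at least 10 counts in each, which is 6.7% of the 7751 genes with such counts. A gene that passed the filter through AGM libraries alone (1045 of those tested) had 3 or more AGM libraries above every AG library by the filter itself. A gene that passed through AG alone (434 of those tested) had every AG library above every AGM library. For the genes of both kinds named below the log2 fold change is given with the adjusted p of the fit without the filter. In that fit 21.3% of 17730 genes were higher and 25.5% lower. The 6618 tested genes that reached 1 FPKM in at least 1 library of each group are called expressed in both groups, and of these 23.6% were higher and 34.6% lower. Counts for gene lists are given for all tested members, beside the shares of 30.1% and 33.6% over all genes, and for members expressed in both groups, beside 23.6% and 34.6%. Where these shares are not repeated with a list, its counts stand against them.

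Fold changes moved with gene properties. From the shortest to the longest of 5 equal bins of gene length, the median log2 fold change was 0.26, 0.12, -0.01, -0.10 and -0.26. From the lowest to the highest bin of transcript GC content it was -0.29, -0.12, 0.01, 0.13 and 0.19. The median was thus above 0 for short and GC-rich genes and below 0 for long and AT-rich genes, and the part of this gradient in the changes below was not tested.

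Endogenous Mycn (GRCm39 chr12:12986076-12992915, minus strand) was low in every gland. It stood at 0.58, 0.559 and 0.823 FPKM in AG and 0.689, 0.559, 1.19, 0.838 and 0.613 FPKM in AGM, and the groups overlapped. The transgene is human and its expression was not analysed here. Scaled to 1e+06 counts outside the extreme genes (RPM), Mycn was at 13.1 ± 2.74 RPM (SD, n = 3) in AG and 11.4 ± 4.53 RPM (SD, n = 5) in AGM (exact two-sided permutation test over 56 splits, p = 0.571, 0.856 after adjustment over the 30 genes tested in this way, where the smallest possible p is 0.0179). All RPM values here carry that scaling, under which the median log2 fold change of all tested genes moved from -0.01 to -0.35. In FPKM the mean of Mycn was 0.654 in AG and 0.778 in AGM. Endogenous mouse Igf2bp1 had 4 counts or fewer in each AG library and at most 0.0202 FPKM in AGM (exact permutation p = 0.143, 0.357 after adjustment). The tumors of the other groups carried a human IGF2BP1 transgene, which is not this gene. Myc, the paralog of Mycn, was at 4.58, 4.32 and 4.53 FPKM in AG and 3.51, 2.48, 3.59, 2.43 and 2.36 FPKM in AGM and fell by 0.51 on the log2 scale (limma, adjusted p = 0.00723), with no overlap of the groups. Its adjusted p was 0.057 with the spread of all 24 libraries.

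Of 8 tested genes of the MYC network, 2 rose and 3 fell, with a median of -0.10, so that 62.5% were called against 63.7% of all genes. Of the 7 expressed in both groups 1 rose and 3 fell. Max, the partner of all MYC proteins, had a mean of 3.58 ± 0.0333 FPKM (SD, n = 3) in AG and 3.34 ± 0.383 FPKM (SD, n = 5) in AGM, and its change did not pass the test (limma, adjusted p = 0.401). Mlxipl encodes ChREBP, a glucose-sensing relative of MYC known from liver and fat. It was at 0.194, 0.437 and 0.561 FPKM in AG and 7.16, 8.47, 4, 10.7 and 16.5 FPKM in AGM and rose (log2 fold change 2.78, adjusted p = 0.000794 without the filter by limma). Its partner Mlx rose by 0.34 (adjusted p = 0.0032), though Mlx stood at -0.06 under the scaling to counts outside the extreme genes, and Mlxip, which encodes the related MondoA, fell (-0.35, adjusted p = 0.00148). With the spread of all 24 libraries the adjusted p was 0.0928 for Mlx and 0.0733 for Mlxip.

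Among established target genes of MYC proteins, 61.0% were called, against 63.7% of all tested genes. Of 41 tested targets, 5 were higher and 20 lower (30.1% and 33.6% over all genes), with a median log2 fold change of -0.33 against -0.01 over all tested genes. The spread of all 24 libraries left 3 higher and 10 lower, and scaling to counts outside the extreme genes 2 higher and 31 lower. Among 20 genes of ribosome biogenesis, 10 fell and 1 rose (median -0.40). Ncl, which encodes the abundant nucleolar protein nucleolin, was at 5.24, 5.49 and 5.48 FPKM in AG and 2.49, 3.68, 2.23, 2.31 and 1.31 FPKM in AGM and fell (log2 fold change -0.95, SE 0.19, adjusted p = 0.00288 by limma). Dkc1, the pseudouridine synthase dyskerin, fell by 0.98 and Pa2g4 by 0.89 (adjusted p = 0.000242 and 5.32e-05), whereas Nop2 rose by 0.43 (adjusted p = 0.00489). Odc1, which makes polyamines and is a classical MYC target, was at 12.1, 13.8 and 10.7 FPKM in AG and 7.59, 7.79, 8.94, 8.01 and 6.99 FPKM in AGM (log2 fold change -0.57, adjusted p = 0.00178). AG and AGM did not overlap for Ncl or Odc1. In the 24-library spread the adjusted p was 0.214 for Odc1.

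The 4 largest changes in the target list ran in both directions. Ldha, lactate dehydrogenase A, was at 5.94, 9.9 and 12.4 FPKM in AG and 24.9, 23.7, 17.5, 28.6 and 48.6 FPKM in AGM and rose (log2 fold change 1.48, SE 0.33, adjusted p = 0.0045). Eif4ebp1, an inhibitor of cap-dependent translation, was at 1.33, 2.42 and 2.95 FPKM in AG and 6.58, 6.89, 4.79, 5.46 and 10.3 FPKM in AGM and rose (log2 fold change 1.26, SE 0.24, adjusted p = 0.00211). Eif4a1, the helicase of the cap-binding complex, was at 29.7, 30.5 and 30.3 FPKM in AG and 12.8, 13.4, 16.7, 14.3 and 12.5 FPKM in AGM and fell (log2 fold change -1.07, SE 0.11, adjusted p = 8.85e-05). Ccnd2, cyclin D2, was at 11.8, 10.1 and 11 FPKM in AG and 3.89, 5.03, 5.99, 4.09 and 2.87 FPKM in AGM and fell (log2 fold change -1.18, SE 0.18, adjusted p = 0.000646). For all 4 the highest library of the lower group stayed below the lowest of the higher group. These p-values are limma's, and all 4 held with the spread of 24 libraries (adjusted p = 0.00234, 0.0011, 0.00623 and 2.01e-06).

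The E-box CACGTG, the best-known binding motif of MYC and MYCN, was searched in the 250 bases before the start of each gene in RefSeq (GRCm38.p6, the first window of each gene, both strands). It was found in 6.05% of 27025 windows and in 8.78% of the 6501 tested genes with a window. Among genes higher in AGM 8.02% held it and among genes lower 9.12%. Of the 34 tested MYC targets with a window, 7 held it (20.6%): Cdk4, Eif4a1, Hspd1, Ldha, Nme1, Nop2 and Paics, of which Ldha and Nop2 rose and Eif4a1, Hspd1 and Paics fell. A match is a description of the letters and not a bound site. Windows of a gene that rose and a gene that fell are shown with CACGTG and TGACGTCA, the cAMP response element described further on, in capitals.
Ldha (chr7:46845554-46845803, plus strand): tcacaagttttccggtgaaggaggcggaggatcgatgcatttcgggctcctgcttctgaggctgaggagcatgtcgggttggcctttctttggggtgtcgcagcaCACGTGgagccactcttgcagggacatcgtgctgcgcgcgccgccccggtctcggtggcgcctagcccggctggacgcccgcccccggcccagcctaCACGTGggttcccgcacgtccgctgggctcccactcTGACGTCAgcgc
Eif4a1 (chr11:69672424-69672673, minus strand): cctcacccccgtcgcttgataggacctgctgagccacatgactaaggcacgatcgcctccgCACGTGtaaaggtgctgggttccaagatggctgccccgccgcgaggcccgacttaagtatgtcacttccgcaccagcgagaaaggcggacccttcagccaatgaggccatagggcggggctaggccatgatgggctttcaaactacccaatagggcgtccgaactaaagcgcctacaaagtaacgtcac
Ldha holds the E-box at 139 and 42 bases from its start and TGACGTCA at 4 bases, and Eif4a1 holds the E-box at 183 bases.

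Chromaffin cell genes were higher in AGM as a group. Of 48 tested genes, 41 rose and 3 fell, with a median log2 fold change of 1.19, and all 48 had at least 10 counts in every AG library. Of the 35 expressed in both groups, 30 rose and 2 fell. With the spread of all 24 libraries 26 were called higher and 2 lower. Scaling to counts outside the extreme genes left 35 of the 48 higher and 3 lower, with a median of 0.835. The summed FPKM of all 64 listed genes was 393, 317 and 416 in AG and 3137, 2473, 4347, 2924 and 2913 in AGM. The list was written with earlier results of these data known. In bulk tissue, a larger share of chromaffin cells and more RNA per cell cannot be told apart, and here run and genotype cannot be told apart either.

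The 4 enzymes of catecholamine synthesis were all higher in AGM. Th (chr7:142443466-142484865, minus strand), tyrosine hydroxylase and the rate-limiting enzyme, was at 15.2, 9.72 and 15.6 FPKM in AG and 205, 159, 269, 197 and 224 FPKM in AGM. Ddc, which makes dopamine, was at 2.52, 2.02 and 2.43 FPKM in AG and 4.79, 4.29, 6.96, 5.4 and 4.12 FPKM in AGM. Dbh, which makes noradrenaline, was at 15.7, 10.9 and 15.3 FPKM in AG and 89.9, 68.5, 101, 88.9 and 94.5 FPKM in AGM. Pnmt (chr11:98277276-98279032, plus strand) converts noradrenaline to adrenaline and marks adrenergic chromaffin cells, and it was at 1.78, 1.07 and 2.01 FPKM in AG and 245, 192, 392, 202 and 254 FPKM in AGM. In each case every AGM library was above every AG library. Log2 fold changes by limma were 3.87 for Th (SE 0.21, adjusted p = 3.95e-06), 0.86 for Ddc (SE 0.15, adjusted p = 0.00118), 2.58 for Dbh (SE 0.17, adjusted p = 9.66e-06) and 6.59 for Pnmt (SE 0.25, adjusted p = 5.21e-07). The call for Ddc was lost with the spread of all 24 libraries (adjusted p = 0.404).

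Transport and breakdown genes were split. Slc18a1, the vesicular monoamine transporter of chromaffin granules, was at 0.431, 0.329 and 0.422 FPKM in AG and 4.83, 4.22, 5.69, 4.67 and 3.88 FPKM in AGM and rose (log2 fold change 2.01, adjusted p = 1.46e-05 without the filter). Cyb561, which regenerates ascorbate inside the granule for Dbh, rose by 1.75 (adjusted p = 0.000143), and Gch1, which makes the cofactor of Th, by 1.06 (adjusted p = 0.000316). Slc6a2, the noradrenaline transporter that returns transmitter to the cell, was at 1.46, 1.11 and 1.34 FPKM in AG and 0.192, 0.151, 0.196, 0.285 and 0.173 FPKM in AGM and fell (log2 fold change -0.94, adjusted p = 3.94e-05 without the filter), and that call was lost with the 24-library spread (adjusted p = 0.0988). Maoa, the mitochondrial enzyme that degrades catecholamines, was at 3.76, 3.98 and 4.2 FPKM in AG and 1.41, 1.47, 1.46, 1.39 and 0.963 FPKM in AGM and fell (log2 fold change -1.1, SE 0.09, adjusted p = 2.56e-05). The p-values are limma's, and the difference between the members was not tested. Taking the spread from all 24 libraries gave an adjusted p of 0.0968 for Cyb561 and 0.201 for Gch1.

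All 15 tested genes of granins, neuropeptides and their processing enzymes rose, with a median log2 fold change of 2.47, and 11 of them were called with the spread of all 24 libraries. Penk, Vgf, Pcsk1 and Cartpt passed the filter through AGM alone, which by itself favors a rise. The 11 expressed in both groups all rose as well, with a median of 2.47. Chga, chromogranin A, was at 71.4, 53.9 and 78.4 FPKM in AG and 963, 641, 1270, 820 and 853 FPKM in AGM (log2 fold change 3.71, SE 0.23, adjusted p = 8.53e-06 by limma). Npy, neuropeptide Y, was at 11.9, 9.06 and 13.1 FPKM in AG and 457, 382, 733, 472 and 562 FPKM in AGM (log2 fold change 5.38, SE 0.23, adjusted p = 9.16e-07). Resp18, a protein of neuroendocrine granules, was at 1.88, 1.49 and 1.96 FPKM in AG and 98.3, 76, 144, 84.8 and 89.1 FPKM in AGM (log2 fold change 5.13, SE 0.20, adjusted p = 6.35e-07). Gal, the peptide galanin, was at 3.41, 2.62 and 3.5 FPKM in AG and 106, 57.4, 138, 77.4 and 87.2 FPKM in AGM (log2 fold change 4.44, SE 0.26, adjusted p = 5.69e-06). AG libraries lay within a narrow band for all 4 genes and every AGM library lay above it.

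The opioid and growth peptides Penk and Vgf were low in AG. Penk, proenkephalin, was at 0.177, 0.14 and 0.219 FPKM in AG and 7.37, 9.47, 11.1, 10.6 and 8.06 FPKM in AGM (log2 fold change 3.12, adjusted p = 5.11e-06 without the filter), with at most 38 counts in AG. Vgf was at 0.125, 0.0863 and 0.254 FPKM in AG and 6.11, 6.02, 13.4, 8.19 and 7.44 FPKM in AGM (log2 fold change 2.95, adjusted p = 9.64e-05 without the filter). Chgb, at 68.2, 51 and 73.3 FPKM in AG and 352, 383, 459, 373 and 202 FPKM in AGM, rose by 2.41 (adjusted p = 0.000136), and Scg2, at 29.9, 23.7 and 31.7 FPKM in AG and 160, 160, 265, 165 and 124 FPKM in AGM, by 2.54 (adjusted p = 5.75e-05). Every AGM library was above every AG library for these 4 genes. Chgb lost its call with the spread of all 24 libraries (adjusted p = 0.0913). Processing enzymes rose as well, with Pcsk1, proprotein convertase 1, at 0.336, 0.22 and 0.353 FPKM in AG and 4.97, 6.95, 8.03, 4.78 and 3.98 FPKM in AGM (log2 fold change 2.34, adjusted p = 0.000119 without the filter). The p-values are limma's.

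The cAMP response element TGACGTCA, bound by CREB family factors, was searched in the same windows after the values were seen. It occurred in 1.62% of all windows and 2.89% of windows of tested genes. Of 32 chromaffin genes with a window it occurred in 5 (15.6%): Th, Chgb, Scg2, Pcsk1 and Cartpt, all of which rose (Cartpt by 1.25, adjusted p = 0.000302 without the filter, or 0.154 with the spread of all 24 libraries), and no chromaffin gene held CACGTG. Among all genes higher in AGM it occurred in 2.5% and among genes lower in 2.86%. The windows of 4 of these genes are shown with the element in capitals.
Th (chr7:142899996-142900245, minus strand): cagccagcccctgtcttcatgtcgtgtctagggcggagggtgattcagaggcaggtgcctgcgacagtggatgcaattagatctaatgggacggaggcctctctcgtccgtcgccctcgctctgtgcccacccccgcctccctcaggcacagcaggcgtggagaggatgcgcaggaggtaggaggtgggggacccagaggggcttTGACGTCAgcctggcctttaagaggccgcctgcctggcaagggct
Chgb (chr2:132781392-132781641, plus strand): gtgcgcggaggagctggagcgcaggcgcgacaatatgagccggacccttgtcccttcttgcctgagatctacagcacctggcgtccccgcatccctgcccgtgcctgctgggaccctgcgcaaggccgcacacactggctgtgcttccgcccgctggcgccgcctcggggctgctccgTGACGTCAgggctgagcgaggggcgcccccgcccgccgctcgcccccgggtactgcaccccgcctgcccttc
Scg2 (chr1:79440027-79440276, minus strand): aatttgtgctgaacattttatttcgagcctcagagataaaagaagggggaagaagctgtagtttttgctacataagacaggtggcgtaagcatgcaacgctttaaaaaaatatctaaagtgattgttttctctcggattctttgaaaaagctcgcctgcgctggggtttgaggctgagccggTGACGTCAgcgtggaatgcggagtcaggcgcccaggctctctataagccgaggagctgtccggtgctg
Pcsk1 (chr13:75089607-75089856, plus strand): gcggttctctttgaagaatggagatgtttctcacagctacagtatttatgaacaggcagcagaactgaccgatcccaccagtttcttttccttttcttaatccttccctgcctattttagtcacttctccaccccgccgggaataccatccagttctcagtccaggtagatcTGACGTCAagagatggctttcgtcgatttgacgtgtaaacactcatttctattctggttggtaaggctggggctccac
The element lies 37, 64, 60 and 70 bases before the start of Th, Chgb, Scg2 and Pcsk1.

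Transcription factors of the sympatho-adrenal lineage did not move as a block. Of 9 tested, 7 rose and 1 fell (6 and 1 of the 8 expressed in both groups), and 3 of the rises were called with the spread of all 24 libraries. Phox2a, a homeodomain factor that sets noradrenergic identity, was at 5.5, 4.92 and 5.12 FPKM in AG and 17.9, 10.5, 20, 15.5 and 17.5 FPKM in AGM (log2 fold change 1.45, SE 0.18, adjusted p = 0.000256 by limma). In that spread the adjusted p was 0.105 for Phox2a. Hand1 was at 0.537, 0.395 and 0.547 FPKM in AG and 27.2, 17.1, 28, 23.2 and 24.3 FPKM in AGM (log2 fold change 4.04, adjusted p = 3.95e-06 without the filter), a larger change than that of its paralog Hand2 (log2 fold change 1.23, adjusted p = 0.00137), though the difference between the paralogs was not tested. Gata3, which acts with them, was at 2.28, 1.81 and 1.98 FPKM in AG and 2.44, 1.46, 3.39, 1.79 and 1.71 FPKM in AGM and did not pass the test (log2 fold change 0.03, or -0.28 when scaled to counts outside the extreme genes, adjusted p = 0.873). Tbx2 was at 5.03, 4.53 and 4.46 FPKM in AG and 2.06, 1.44, 1.99, 1.61 and 1.9 FPKM in AGM and fell (log2 fold change -1.02, SE 0.09, adjusted p = 4.03e-05). Isl1, Sox11 and Eya1, known from sympathoblasts, are listed but did not reach the expression filter.

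Neuronal and secretory genes rose in 10 of 13 tested cases, with none lower, and in 6 of the 8 expressed in both groups. Syp, synaptophysin, was at 1.64, 1.35 and 1.82 FPKM in AG and 12.8, 8.91, 16.4, 11.4 and 12.1 FPKM in AGM (log2 fold change 2.34, SE 0.17, adjusted p = 1.57e-05 by limma). Uchl1 rose by 1.1 and Stmn3 by 1.33 (adjusted p = 0.00118 and 0.000415). Alk, Ret, Gap43 and the neurofilament genes Nefl and Nefm, which are abundant in neuroblasts or neurons, were below the filter.

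**Figure D2:**
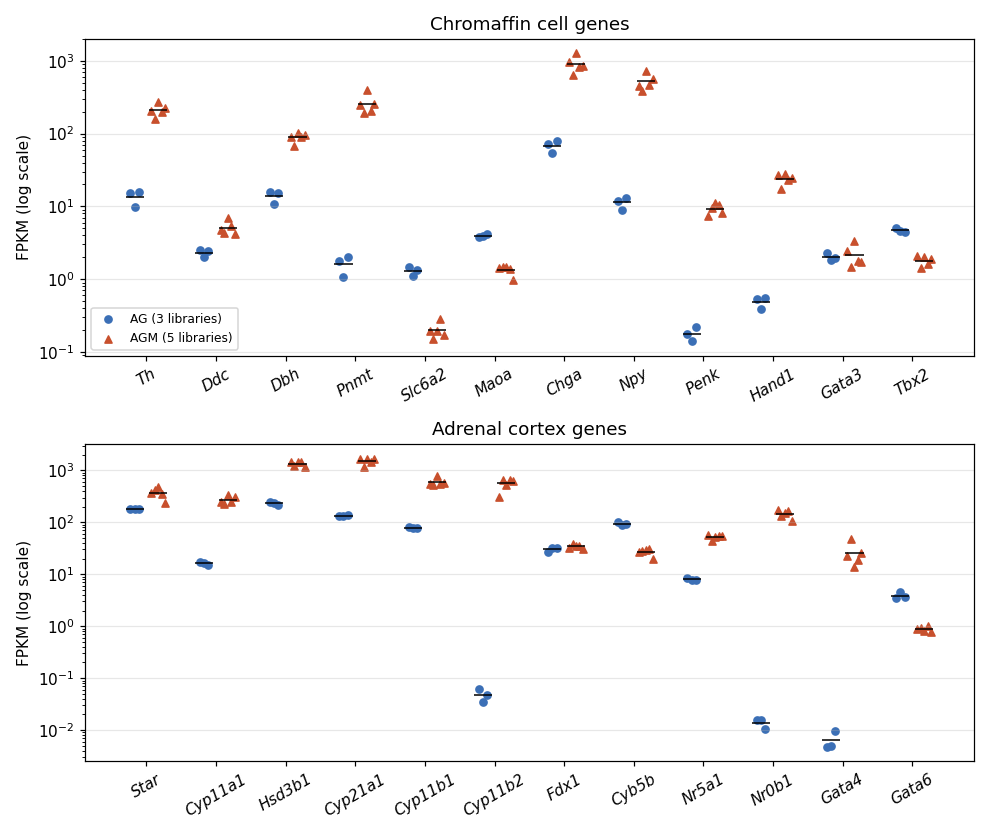
FPKM (log scale) of 12 chromaffin cell genes (top) and 12 adrenal cortex genes (bottom) in each of the 3 AG libraries (blue circles) and 5 AGM libraries (red triangles), with the group mean as a line. Groups overlap for Gata3 and Fdx1 and are separate for the other genes, and Cyp11b2, Nr0b1 and Gata4 lie below 0.1 FPKM in AG.

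Adrenal cortex genes rose in 28 of 47 tested cases and fell in 5, with a median log2 fold change of 0.84, against shares of 30.1% and 33.6% over all genes. Of the 42 expressed in both groups 24 rose and 5 fell (median 0.66). Scaling to counts outside the extreme genes left 21 of the 47 higher and 9 lower, with a median of 0.40. The steroid enzymes are taken in the order in which they act. Star, which carries cholesterol into mitochondria, was at 178, 184 and 183 FPKM in AG and 371, 416, 476, 354 and 238 FPKM in AGM (log2 fold change 0.99, SE 0.22, adjusted p = 0.0045 by limma). Cyp11a1, which cleaves the side chain of cholesterol, was at 17, 16.5 and 15.4 FPKM in AG and 246, 223, 339, 241 and 302 FPKM in AGM (log2 fold change 3.96, SE 0.16, adjusted p = 8.3e-07). Hsd3b1 was at 247, 236 and 220 FPKM in AG and 1430, 1220, 1460, 1430 and 1170 FPKM in AGM (log2 fold change 2.51, SE 0.14, adjusted p = 4.31e-06). Every AGM library was above every AG library for these 3 genes, and the change of Star was the smallest. When scaled to counts outside the extreme genes, the log2 fold change of Star was 0.52 and its call was lost (adjusted p = 0.158).

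Cyp21a1, steroid 21-hydroxylase, was at 131, 132 and 139 FPKM in AG and 1630, 1170, 1680, 1430 and 1660 FPKM in AGM (log2 fold change 3.48, SE 0.16, adjusted p = 1.6e-06 by limma). Cyp11b1, which makes corticosterone in the zona fasciculata, was at 81.9, 78.7 and 76.2 FPKM in AG and 541, 512, 788, 550 and 570 FPKM in AGM (log2 fold change 2.87, SE 0.17, adjusted p = 5.07e-06). Cyp11b2, aldosterone synthase of the zona glomerulosa, was at 0.0631, 0.0351 and 0.0464 FPKM in AG and 311, 665, 527, 662 and 632 FPKM in AGM, with 11 counts or fewer in AG. Cyp11b2 was thus near the floor of the adjusted counts in the AG glands, where Star had at least 78535 counts. The part of the batch adjustment in the low Cyp11b2 counts was not tested.

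None of the 4 electron carrier genes examined was called higher. Fdx1, adrenodoxin, was at 26.9, 32.4 and 31.6 FPKM in AG and 32, 37.8, 35.2, 35.4 and 31 FPKM in AGM and did not pass the test (log2 fold change 0.18, SE 0.11, adjusted p = 0.2 by limma, with -0.28 when scaled to counts outside the extreme genes). Fdxr, its reductase, was at 111, 114 and 99.5 FPKM in AG and 91, 76.1, 96.6, 84.3 and 93.4 FPKM in AGM, and did not pass the test either although the groups did not overlap (log2 fold change -0.29, SE 0.12, adjusted p = 0.0676). Por, which supplies the microsomal enzymes, did not pass (log2 fold change 0.19, or -0.26 under that scaling, adjusted p = 0.476), and Cyb5b was at 101, 90.8 and 91.7 FPKM in AG and 27.1, 28.5, 29.3, 31.1 and 20 FPKM in AGM and fell (log2 fold change -1.77, SE 0.15, adjusted p = 3.97e-05). Cyp11a1 and Cyp11b1, the mitochondrial enzymes, take their electrons from Fdx1 and Fdxr.

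Regulators of the cortex included some of the largest rises. Nr5a1 (SF-1), the master regulator of steroidogenic cells, was at 8.31, 7.66 and 7.91 FPKM in AG and 56.8, 42.8, 51.6, 53.5 and 53.9 FPKM in AGM (log2 fold change 2.55, SE 0.11, adjusted p = 1.21e-06 by limma). Mc2r, the ACTH receptor, was at 4.18, 3.4 and 3.4 FPKM in AG and 46.3, 48, 52.2, 42.5 and 32.6 FPKM in AGM (log2 fold change 3.27, SE 0.16, adjusted p = 1.88e-06), and Mrap, its accessory protein, was at 4.83, 5.35 and 5.58 FPKM in AG and 70.4, 62.2, 81.1, 86.2 and 108 FPKM in AGM (log2 fold change 3.70, SE 0.17, adjusted p = 1.79e-06). Agtr1a, the angiotensin receptor, was at 3.12, 2.69 and 2.65 FPKM in AG and 14.2, 18.6, 21.8, 16.3 and 15.5 FPKM in AGM (log2 fold change 2.25, SE 0.14, adjusted p = 6.61e-06). Nr0b1 (DAX-1), which represses SF-1, was at 0.0155, 0.0158 and 0.0104 FPKM in AG and 170, 132, 149, 165 and 105 FPKM in AGM, with at most 3 counts in AG. Nr5a1 was thus measured in both groups, and Nr0b1 was at its floor in AG.

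The GATA factors of the cortex changed in opposite directions. Gata4 was at 0.00477, 0.00487 and 0.00965 FPKM in AG and 22.7, 47.5, 13.6, 18.8 and 25.8 FPKM in AGM, with at most 4 counts in AG (log2 fold change 4.61, adjusted p = 7.64e-05 without the filter by limma). Gata6, the GATA factor of the adult adrenal cortex, was at 3.51, 4.53 and 3.64 FPKM in AG and 0.89, 0.912, 0.825, 1.03 and 0.787 FPKM in AGM and fell (log2 fold change -1.37, SE 0.08, adjusted p = 5.25e-06). Gata6 had up to 3104 counts in AG. No library of either group overlapped the other for these factors. The potassium channel gene Kcnk9 rose by 0.94 (adjusted p = 0.000268).

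Genes that supply cholesterol changed less. Of 12 tested, 6 rose and none fell (median 0.37, and -0.01 when scaled to counts outside the extreme genes, which left 3 higher and 3 lower). Scarb1, the HDL receptor, was at 37.6, 27.1 and 29.7 FPKM in AG and 35.7, 38.9, 59.4, 36.7 and 51.9 FPKM in AGM and did not pass the test (log2 fold change 0.47, SE 0.20, adjusted p = 0.0728 by limma). Of 19 genes of cholesterol synthesis, 5 rose and 3 fell (median 0.22, and -0.14 under the other scaling, which left none higher and 7 lower). Hmgcs1, an early enzyme of the pathway, fell by 0.93 (adjusted p = 0.0156, or 0.0619 without AG library 1), and Srebf1, a regulator of lipid synthesis, rose by 0.61 (adjusted p = 0.0167, or 0.0575 without AG library 2). The adjusted p was 0.0605 for Hmgcs1 and 0.222 for Srebf1 with the spread of all 24 libraries.

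Steroid-reducing and detoxifying enzymes rose in 7 of 11 tested cases and fell in 2, with 6 and 2 of the 10 expressed in both groups. Akr1b7, an aldose reductase under ACTH control, was at 31, 18.2 and 16 FPKM in AG and 440, 550, 1020, 465 and 877 FPKM in AGM (log2 fold change 4.86, SE 0.35, adjusted p = 1.56e-05 by limma). Srd5a2, steroid 5α-reductase 2, was at 0.0232, 0.0178 and 0.0117 FPKM in AG and 253, 905, 165, 325 and 100 FPKM in AGM, with at most 4 counts in AG. Its paralog Srd5a1 was at 4.1, 4.41 and 3.49 FPKM in AG and 1.35, 1.22, 1.24, 1.48 and 1.25 FPKM in AGM and fell (log2 fold change -1.11, SE 0.07, adjusted p = 1.01e-05). Akr1d1, steroid 5β-reductase, was at 162, 180 and 165 FPKM in AG and 41.2, 33, 39.6, 40.4 and 19.3 FPKM in AGM and fell (log2 fold change -2.30, SE 0.25, adjusted p = 0.000112). Srd5a2 was thus near the floor of the adjusted counts in AG, whereas Srd5a1 and Akr1d1 were measured in both groups and were lower in AGM.

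The X-zone is a fetal remnant of the inner cortex that persists in young female mice. Its marker Akr1c18 was at 53.6, 17.6 and 1.35 FPKM in AG and 2.19, 22.7, 0.227, 13.7 and 0.257 FPKM in AGM, with wide overlap (log2 fold change -1.59, SE 1.31, adjusted p = 0.313 by limma). Cyp17a1, which adult mouse adrenals are known to lack, was at 0.00673, 0.00686 and 0.0068 FPKM in AG and 17.2, 81.5, 6.4, 206 and 420 FPKM in AGM, and AG had at most 2 counts (log2 fold change 5.96, adjusted p = 0.00719 without the filter by limma, or adjusted p = 0.0779 by limma-voom on the counts). AGM libraries 4 and 5 held the highest Cyp17a1 values and Akr1c18 did not follow them.

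Genes of the capsule and of zonation were mixed, with 9 of 24 tested genes higher, 8 lower and a median of -0.04, so that 70.8% were called against 63.7% of all genes. Of the 16 expressed in both groups 5 rose and 4 fell. Scaling to counts outside the extreme genes gave 5 higher and 11 lower of the 24, with a median of -0.30. Tcf21, a marker of capsular stem cells, was at 0.532, 0.518 and 0.57 FPKM in AG and 4.22, 4, 4.7, 3.4 and 3.47 FPKM in AGM (log2 fold change 1.68, adjusted p = 2.09e-05 without the filter by limma). Wt1, at 0.0015, 0.00153 and 0.00152 FPKM in AG and 10.2, 29, 10.3, 10.1 and 5.5 FPKM in AGM, had 1 count in each AG library. Gli1, the hedgehog target of capsular cells, was below the filter at 4.04 ± 0.551 RPM (SD, n = 3) in AG and 8.5 ± 2.38 RPM (SD, n = 5) in AGM (exact permutation p = 0.0357, 0.153 after adjustment). Rspo3, which capsular cells secrete to sustain Wnt signalling, was at 1.39, 1.36 and 1.36 FPKM in AG and 2.52, 3.45, 2.68, 3.09 and 1.81 FPKM in AGM (log2 fold change 0.63, SE 0.14, adjusted p = 0.00403, or 0.33 and adjusted p = 0.123 when scaled to counts outside the extreme genes). Wnt4, made in the glomerulosa, was at 14.2, 12.3 and 12.6 FPKM in AG and 47.9, 28, 64.3, 33.5 and 41.7 FPKM in AGM (log2 fold change 1.60, SE 0.25, adjusted p = 0.000731). Tcf21, Rspo3 and Wnt4 were thus higher in AGM, whereas Ctnnb1, which encodes β-catenin, fell by 0.86 (adjusted p = 0.0028), and Axin2, its target, rose by 0.29 (adjusted p = 0.0029), a direction that turned to -0.01 when scaled to counts outside the extreme genes. In the 24-library spread the adjusted p was 0.0646 for Axin2.

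Cell cycle genes were lower. Only 28 of 97 listed S and G2/M genes passed the filter on low values, and of these 27 fell and none rose (median -0.66), against 33.6% lower over all genes. Of the 28, 12 passed the filter through AG alone, so that the filter itself placed every AG library above every AGM library. Of the 16 expressed in both groups 15 fell. Without the filter 89 of the 97 were lower, against 25.5% of all genes. The fit with the spread of 24 libraries called 7 of the 28 tested genes lower. Cks1b, a cofactor of cyclin-dependent kinases, was at 8.14, 8.72 and 7.84 FPKM in AG and 2.62, 2, 2.69, 1.93 and 1.89 FPKM in AGM (log2 fold change -1.52, SE 0.10, adjusted p = 1.23e-05 by limma). Anp32e was at 8.49, 8.47 and 8.55 FPKM in AG and 2.85, 3.36, 2.98, 2.77 and 1.67 FPKM in AGM (log2 fold change -1.37, SE 0.15, adjusted p = 0.000112), and Mcm6, a subunit of the replicative helicase, was at 2.35, 2.1 and 2.16 FPKM in AG and 0.566, 0.796, 0.569, 0.933 and 0.532 FPKM in AGM (log2 fold change -0.94, adjusted p = 0.000212 without the filter). E2f1 fell by 0.93, its partners Tfdp1 and Tfdp2 by 1.0 and 1.19 (adjusted p = 8.02e-05, 6.02e-06 and, without the filter, 0.000119). Taking the spread from all 24 libraries gave an adjusted p of 0.143 for Mcm6 and 0.114 for E2f1.

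Regulators of G1 changed in opposite directions. Ccnd1, cyclin D1, was at 23.6, 19.3 and 22.1 FPKM in AG and 6.74, 5.37, 7.7, 6.93 and 6.83 FPKM in AGM and fell (log2 fold change -1.56, SE 0.12, adjusted p = 2.21e-05 by limma, and adjusted p = 0.0522 with the spread of 24 libraries). Cdkn1c (p57), an inhibitor of cyclin-dependent kinases that is abundant in the adrenal cortex, was at 7.16, 5.7 and 6.06 FPKM in AG and 159, 93.2, 154, 118 and 172 FPKM in AGM and rose (log2 fold change 4.23, SE 0.21, adjusted p = 2.46e-06). Cdkn2c fell by 0.89 and Cdkn1a, the p53 target p21, by 0.72 (adjusted p = 5.09e-05 and 0.00276, the latter 0.0739 with the spread of all 24 libraries). Of 15 tested genes of p53 and its targets, 8 fell and 4 rose, against 33.6% and 30.1% of all genes, and 3 of each were called with the 24-library spread. Of the 13 expressed in both groups 7 fell and 3 rose, and scaling to counts outside the extreme genes left 10 of the 15 lower and 2 higher. Trp53 itself fell by 0.64 (adjusted p = 9.38e-05, or 0.0662 with the 24-library spread), Ccng1 was at 5.72, 6.05 and 6.54 FPKM in AG and 2.37, 3.06, 2.48, 1.95 and 1.4 FPKM in AGM (log2 fold change -1.15, SE 0.16, adjusted p = 0.000371), and Btg2 rose by 1.36 (adjusted p = 0.003).

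Glycolysis genes rose in 14 of 21 tested cases and fell in 1 (median 0.54), against 30.1% and 33.6% of all genes. Of the 16 expressed in both groups 9 rose and 1 fell. Scaling to counts outside the extreme genes left 8 of the 21 higher and 3 lower, with a median of 0.19. Pfkm was at 2.06, 2.18 and 2.12 FPKM in AG and 13.5, 11, 13.8, 11.6 and 11.2 FPKM in AGM (log2 fold change 2.08, SE 0.09, adjusted p = 1.23e-06 by limma). Eno2, the neuronal enolase, was at 0.135, 0.0828 and 0.142 FPKM in AG and 3.93, 2.66, 4.78, 3.51 and 2.99 FPKM in AGM (log2 fold change 2.01, adjusted p = 6.42e-05 without the filter). Aldoa was at 54.7, 71.9 and 78 FPKM in AG and 251, 247, 216, 189 and 309 FPKM in AGM (log2 fold change 1.81, SE 0.19, adjusted p = 0.000109), and the glucose transporter Slc2a1 at 0.936, 0.829 and 0.887 FPKM in AG and 4.34, 3.52, 3.92, 4.06 and 4.14 FPKM in AGM (log2 fold change 1.40, adjusted p = 7.8e-06 without the filter). Pkm, Eno1 and Gapdh, other enzymes of the pathway, did not pass the test (log2 fold change 0.03, 0.27 and -0.34, adjusted p = 0.859, 0.351 and 0.131), and Pkm and Eno1 stood at -0.43 and -0.19 when scaled to counts outside the extreme genes.

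Proteasome genes ran the other way, with 19 of 31 lower, none higher and a median of -0.32. The share called, 61.3%, stood beside 63.7% over all genes, of which 33.6% were lower. Psmc1, an ATPase of the regulatory particle, was at 21.8, 20.6 and 20.1 FPKM in AG and 12.4, 11.4, 15.1, 12.8 and 11.8 FPKM in AGM (log2 fold change -0.68, SE 0.10, adjusted p = 0.000693 by limma). Psmd2 fell by 0.63 (adjusted p = 0.000375). With the spread of 24 libraries 6 of the 31 were called. Cytosolic ribosomal protein genes were near the all-gene median, with 6 of 78 higher, 11 lower and a median of -0.10. Mitochondrial ribosomal protein genes (13 of 75 higher, 13 lower) and oxidative phosphorylation genes (8 of 79 higher, 3 lower) were called in 34.7% and 13.9% of cases, beside 63.7% over all genes, and the difference was not tested. Scaling to counts outside the extreme genes called 49 of the 78 cytosolic, 37 of the 75 mitochondrial and 37 of the 79 oxidative phosphorylation genes lower.

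**Figure D3:**
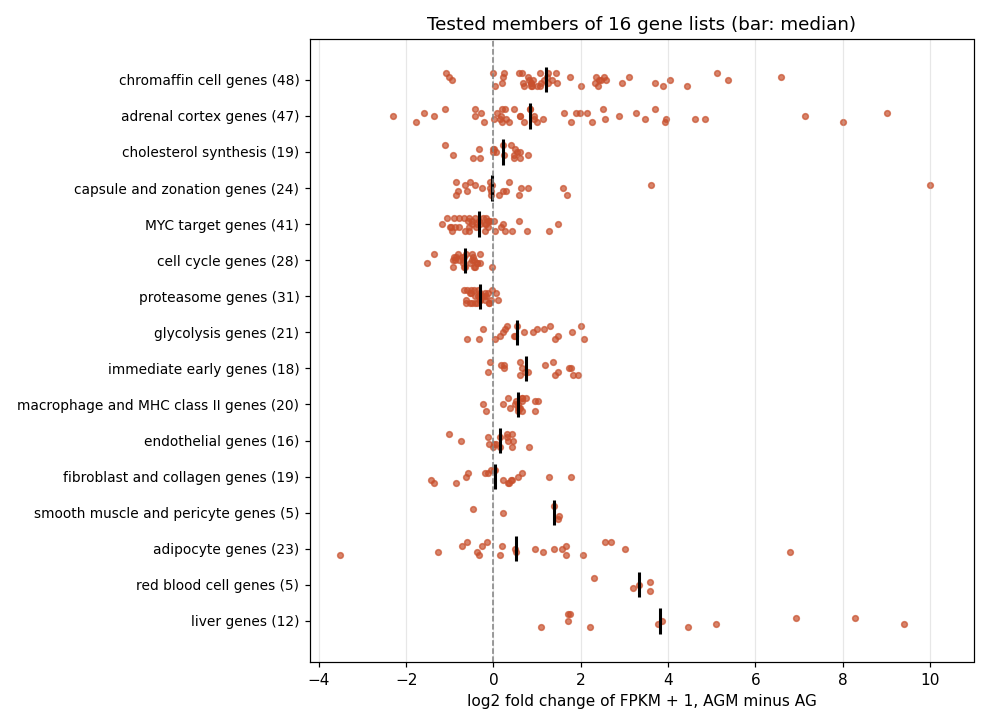
Log2 fold change (AGM minus AG, FPKM + 1) of every tested member of 16 gene lists, with the number tested in parentheses, the list median as a black bar and the median of all 8097 genes as a dashed line. Chromaffin, cortex, smooth muscle, red blood cell and liver lists have medians of 0.84 or more, and MYC target, proteasome and cell cycle lists have medians of -0.32 or less. Notum, at 15.8, is drawn at 10.

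Immediate early genes, which are induced within minutes by stimulation or by handling of tissue, rose in 12 of 18 tested cases and none fell (median 0.76), against 30.1% and 33.6% of all genes, and 6 were called with the spread of all 24 libraries. Of the 14 expressed in both groups 8 rose. Scaling to counts outside the extreme genes left 8 of the 18 higher and 2 lower, with a median of 0.45. Fos was at 0.0317, 0.194 and 0.0761 FPKM in AG and 4.36, 1.35, 5.75, 5.59 and 1.38 FPKM in AGM (log2 fold change 1.94, adjusted p = 0.00688 without the filter by limma). Egr1 was at 0.38, 1.33 and 1.04 FPKM in AG and 5.99, 2.12, 14, 7.76 and 3.51 FPKM in AGM (log2 fold change 1.83, SE 0.47, adjusted p = 0.00934), and Nr4a1, the orphan receptor NUR77 that ACTH induces in the cortex, was at 1.68, 21.5 and 14.7 FPKM in AG and 31.9, 24.3, 35.2, 47 and 28.2 FPKM in AGM (log2 fold change 1.77, SE 0.62, adjusted p = 0.0353). AG library 1 was the lowest AG library in all 3 genes. With the 24-library spread the adjusted p was 0.0602 for Fos, 0.0562 for Egr1 and 0.1 for Nr4a1, and Nr4a1 also lost its call without AGM library 1, 3, 4 or 5 (adjusted p = 0.0605, 0.0614, 0.0694 and 0.052). Ier3 rose by 1.74 (adjusted p = 0.000198 without the filter).

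Genes that respond to glucocorticoids and metals were led by the metallothioneins. Mt1 was at 3.56, 3.73 and 4.48 FPKM in AG and 36.5, 30.8, 69.9, 29.8 and 51.5 FPKM in AGM (log2 fold change 3.11, SE 0.28, adjusted p = 4.68e-05 by limma) and Mt2 at 4.74, 4.44 and 6.14 FPKM in AG and 48.5, 35.6, 87.1, 36.3 and 52.6 FPKM in AGM (log2 fold change 3.05, SE 0.28, adjusted p = 5.81e-05). Across 14 tested glucocorticoid response genes, 6 rose and 2 fell (5 and 2 of the 13 expressed in both groups, and 5 and 4 of the 14 under the other scaling). Gpx3, a secreted glutathione peroxidase, was at 5.52, 7.98 and 11 FPKM in AG and 40.9, 45.4, 30.1, 38.7 and 53.7 FPKM in AGM (log2 fold change 2.24, SE 0.23, adjusted p = 9.74e-05). Bag3, a co-chaperone, was at 4.65, 5.58 and 5.19 FPKM in AG and 31.8, 28.7, 35, 30.6 and 35.1 FPKM in AGM (log2 fold change 2.43, SE 0.10, adjusted p = 9.16e-07), whereas the chaperones Hsp90aa1, at 18.5, 17.3 and 20.7 FPKM in AG and 6.68, 12.4, 7.47, 7.93 and 4.45 FPKM in AGM, and Hspd1 fell (by 1.23 and 1.0, adjusted p = 0.00294 and 0.00443). Heat shock genes were thus split, with 4 of 15 higher and 4 lower. Unfolded protein response genes (5 of 20 higher, 4 lower, median 0.03) and interferon-stimulated genes (6 of 21 higher, 5 lower, median 0.20, and -0.13 under the other scaling) changed in both directions. Under that scaling 4 of the unfolded protein response genes were higher and 10 lower, and 3 of the interferon-stimulated genes higher and 8 lower.

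The circadian clock depends on the hour of dissection, which was not given in the sources used here. Of 12 tested clock genes, 5 rose and none fell, so that 41.7% were called against 63.7% of all genes. With the spread of all 24 libraries 3 were called. Of the 9 expressed in both groups 2 rose. Bhlhe40, a repressor of the clock, was at 1.49, 2.07 and 1.82 FPKM in AG and 8.1, 9.24, 7.75, 8.74 and 7.4 FPKM in AGM (log2 fold change 1.73, SE 0.10, adjusted p = 4.31e-06 by limma). Nr1d1, which follows the time of day closely, was at 15.9, 11.5 and 11.9 FPKM in AG and 32.1, 24.2, 21.1, 21.8 and 28.4 FPKM in AGM (log2 fold change 0.91, SE 0.17, adjusted p = 0.00198, or adjusted p = 0.0504 with the spread of all 24 libraries). The period genes Per1 and Per2 and the output gene Dbp did not pass (log2 fold change 0.41, 0.38 and 0.46, adjusted p = 0.174, 0.071 and 0.0806).

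The study paired MYCN with IGF2BP1 in its tumors, and genes around both proteins were few above the filter. Of the IGF2BP family and the let-7 axis only Hmga1 and Drosha passed the filter, and Hmga1 rose by 0.49 while Drosha fell by 0.21 (limma, adjusted p = 0.00504 and 0.0362). Drosha lost its call without any of the AG libraries or without AGM library 1 or 4 (adjusted p = 0.0985, 0.0705, 0.106, 0.078 and 0.0647). Of 8 tested genes for turnover of MYCN protein, 5 fell and none rose, so that 62.5% were called against 63.7% of all genes. Among those lower were the ubiquitin ligase Huwe1, at 2.53, 2.27 and 2.17 FPKM in AG and 0.983, 1.46, 0.925, 1.08 and 0.773 FPKM in AGM (log2 fold change -0.71, SE 0.10, adjusted p = 0.000511), the deubiquitinase Usp7 (-0.61, adjusted p = 0.00125) and the kinase Gsk3b (-0.48, adjusted p = 0.00253). Igf1r, the receptor of insulin-like growth factors, was at 2, 1.79 and 1.79 FPKM in AG and 0.806, 1.12, 0.95, 0.955 and 0.577 FPKM in AGM and fell (log2 fold change -0.61, SE 0.09, adjusted p = 0.000685). The adjusted p was 0.0797 for Hmga1, 0.482 for Drosha and 0.0512 for Gsk3b with the spread of all 24 libraries. The ligand Igf2 had 1 count in each AG library and stood between 0.599 and 1.96 FPKM in AGM. Igfals, a serum carrier of these factors made in liver, was at 0.00294, 0.003 and 0.00297 FPKM in AG and 45.4, 69.3, 20.2, 351 and 495 FPKM in AGM, with 1 count in each AG library.

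Markers of other organs varied by library. The 16 liver genes summed to 26.0, 44.4 and 55.2 FPKM in AG and to 838, 201, 85.1, 16760 and 27070 FPKM in AGM. Alb was at 0.458, 0.949 and 0.949 FPKM in AG and 20.9, 4.69, 0.697, 610 and 677 FPKM in AGM, and Apoa1 at 0.324, 0.784 and 0.709 FPKM in AG and 10.7, 2.43, 0.343, 277 and 326 FPKM in AGM. Both were thus highest in AGM libraries 4 and 5 and near the AG level in AGM library 3, and neither passed the test (limma, adjusted p = 0.122 and 0.153 without the filter). The 12 tested liver genes had a median log2 fold change of 3.82, which was 1.26 without AGM libraries 4 and 5. Of these, 4 were called higher (33.3%, beside 30.1% over all genes), or 8 with the spread of all 24 libraries. All 4 had passed the filter through AGM alone, and none of the 4 liver genes expressed in both groups was called. Rbp4 (at 0.576, 2.08 and 3.02 FPKM in AG and 47.2, 55.7, 19.6, 350 and 523 FPKM in AGM) was highest in the same libraries. The part of liver transcripts in the changes above was not tested. Without these libraries 4795 genes were called.

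Red blood cell genes were higher in every AGM library than in any AG library. Hbb-bs, adult β-globin, was at 66, 49.8 and 102 FPKM in AG and 235, 513, 603, 2480 and 988 FPKM in AGM (log2 fold change 3.33, SE 0.67, adjusted p = 0.00291 by limma), and Alas2, the first enzyme of heme synthesis in erythroid cells, was at 0.884, 0.542 and 1.09 FPKM in AG and 2.53, 5.85, 5.38, 31.5 and 10.8 FPKM in AGM (log2 fold change 2.30, SE 0.62, adjusted p = 0.0118). All 5 tested genes rose, AGM library 4 being the highest for each globin. The globins are near-identical pairs whose reads could be split between copies. Exocrine pancreas genes were at 3.38 to 4.22 FPKM in sum in AG and at 36820 or more in AGM, of which Cpb1 was the largest part in 4 of the 5 libraries. The defining enzymes Cpa1, Cela2a, Prss2 and Pnlip stayed at or below 0.0268 FPKM in all 8 glands, and Ctrb1 was at 386000 FPKM in AGM library 2 and at 0 in the others. Kidney markers overlapped in sum (9.74 to 15.7 FPKM in AG, 7.22 to 13.6 FPKM in AGM), with Umod, Slc12a1, Slc34a1 and Kap at or near 0 (0.0199 FPKM or less). Most of the kidney sum came from Aqp1 alone (9.45 to 15.5 FPKM in AG, 6.42 to 12.9 FPKM in AGM).

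Adipocyte genes were uneven in AG itself. Adipoq, adiponectin, was at 19.6, 79.7 and 99.7 FPKM in AG and 45.5, 68.8, 25.6, 29.1 and 60 FPKM in AGM and Ucp1, the uncoupling protein of brown fat, at 3.9, 52.1 and 62.8 FPKM in AG and 102, 93.5, 42, 37.1 and 206 FPKM in AGM, so that AG library 1 held less of each than AG libraries 2 and 3. Neither passed the test (limma, adjusted p = 0.61 and 0.142). Lep, leptin, was at 1.16, 0.578 and 0.789 FPKM in AG and 221, 773, 132, 83.8 and 181 FPKM in AGM (log2 fold change 6.80, SE 0.62, adjusted p = 5.37e-05), Plin1 at 2.98, 7.67 and 9.46 FPKM in AG and 62.3, 79.4, 30.9, 43.2 and 89.2 FPKM in AGM (log2 fold change 3.02, SE 0.42, adjusted p = 0.000427) and Fabp4 at 6.16, 25.6 and 29.7 FPKM in AG and 82.9, 108, 49.4, 48.3 and 102 FPKM in AGM (log2 fold change 2.05, SE 0.51, adjusted p = 0.00806). Car3, carbonic anhydrase 3 of fat and muscle, was at 111, 471 and 631 FPKM in AG and 22.8, 54.4, 12.9, 27.9 and 33.5 FPKM in AGM and fell (log2 fold change -3.51, SE 0.62, adjusted p = 0.00141). Of 23 tested adipocyte genes, 8 rose and Car3 fell, so that 39.1% were called against 63.7% of all genes. Summed FPKM of the list was 281, 1417 and 1882 in AG and between 589 and 1809 in AGM, with overlap.

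**Figure D4:**
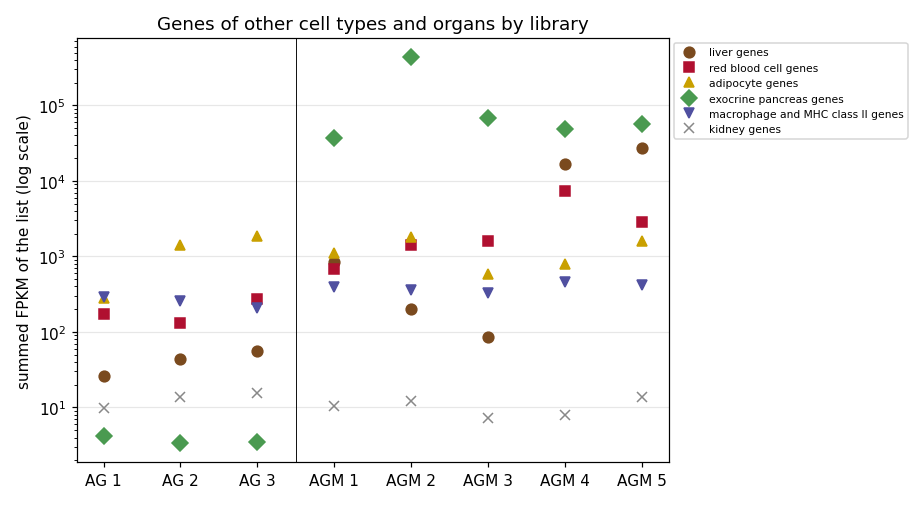
Summed FPKM (log scale) of 6 lists of marker genes for other cell types and organs in each gland library, AG on the left of the line and AGM on the right. Liver genes are at 16760 and 27070 FPKM in AGM libraries 4 and 5 and at 838 FPKM or less elsewhere, and adipocyte genes are lowest in AG library 1.

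Immune and stromal genes gave smaller differences. Macrophage and MHC class II genes rose in 14 of 20 tested cases with none lower (median 0.57), against 30.1% and 33.6% of all genes, and in 11 of the 17 expressed in both groups. Under the other scaling 3 were higher and 2 lower (median 0.19), and 3 were called higher with the spread of 24 libraries. Spp1 was at 0.509, 0.346 and 0.406 FPKM in AG and 1.23, 1.84, 2.58, 1.82 and 2.17 FPKM in AGM (log2 fold change 1.03, adjusted p = 0.00105 without the filter by limma), and C1qa rose by 0.65 (adjusted p = 0.0291) with overlap of the groups, a call that was lost without AG library 2 or 3 or AGM library 1, 4 or 5 (adjusted p = 0.0606, 0.119, 0.0569, 0.0572 and 0.0515). In the 24-library spread the adjusted p was 0.0709 for Spp1 and 0.174 for C1qa. Adgre1 and Csf1r, which define macrophages, did not pass (log2 fold change -0.17 and 0.23, adjusted p = 0.284 and 0.215), and Csf1r stood at -0.09 when scaled to counts outside the extreme genes. Of 25 listed lymphocyte genes 3 passed the filter, of which Jchain, at 2.87, 1.99 and 1.22 FPKM in AG and 0.5, 0.623, 0.916, 0.73 and 0.555 FPKM in AGM, and Ccl5 fell (by 0.83 and 0.75, adjusted p = 0.00607 without the filter for Jchain and 0.00716 for Ccl5). Cd3e, below the filter, was at 4.27 ± 1.85 RPM (SD, n = 3) in AG and 0.693 ± 0.112 RPM (SD, n = 5) in AGM (exact permutation p = 0.0179, 0.0895 after adjustment).

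The defining endothelial genes Pecam1 and Cdh5 did not pass the test (limma, adjusted p = 0.934 and 0.967). Pecam1 stood at 3.26, 3.19 and 3.04 FPKM in AG and 3.59, 3.03, 2.99, 2.8 and 3.36 FPKM in AGM, with overlap of the groups. The receptors Kdr and Tek were lower, although 7 of 16 endothelial genes rose (1 with the spread of all 24 libraries, and none when scaled to counts outside the extreme genes), with Kdr at 4.09, 3.59 and 3.77 FPKM in AG and 1.68, 2, 1.89, 1.8 and 1.89 FPKM in AGM (log2 fold change -0.75, SE 0.06, adjusted p = 2.76e-05) and Tek at 3.54, 3.29 and 3.14 FPKM in AG and 1.05, 1.39, 1.33, 1.04 and 0.945 FPKM in AGM (log2 fold change -1.01, SE 0.08, adjusted p = 3.09e-05), while the tight junction gene Cldn5 rose by 0.82 (adjusted p = 0.00174). Fibroblast genes were split as well, with 6 of 19 higher and 5 lower, or 1 and 3 with the spread of all 24 libraries. Dcn, decorin, was at 8.28, 6.64 and 6.42 FPKM in AG and 1.82, 3.07, 1.63, 2.43 and 1.87 FPKM in AGM and fell (log2 fold change -1.37, SE 0.15, adjusted p = 0.000138), Lum fell by 1.43 (adjusted p = 8.11e-05), and Thy1 was at 1.21, 1.04 and 1.06 FPKM in AG and 7.02, 4.37, 8.56, 5.28 and 6.79 FPKM in AGM and rose (log2 fold change 1.79, SE 0.17, adjusted p = 7.09e-05). Smooth muscle genes rose in 3 of 5 cases and fell in 1. Those higher were Acta2, at 1.87, 1.38 and 1.29 FPKM in AG and 6.78, 5.72, 4.76, 5.67 and 6.98 FPKM in AGM (log2 fold change 1.47, SE 0.13, adjusted p = 3.92e-05), Tagln (1.51, adjusted p = 3.19e-05) and Myl9 (1.38, adjusted p = 1.16e-05). Des was at 1.36, 1.7 and 1.66 FPKM in AG and 0.861, 0.687, 0.843, 0.791 and 1.05 FPKM in AGM and fell (log2 fold change -0.48, SE 0.08, adjusted p = 0.000806). With the spread of all 24 libraries the adjusted p of Des was 0.388.

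Schwann cell genes were low, and 3 of 14 passed the filter. Sox10, the factor that defines these cells, was at 0.134, 0.143 and 0.167 FPKM in AG and 0.133, 0.125, 0.143, 0.14 and 0.168 FPKM in AGM, with overlap in FPKM. As RPM it stood at 2.75 ± 0.263 RPM (SD, n = 3) in AG and 1.89 ± 0.173 RPM (SD, n = 5) in AGM, with no overlap (exact permutation p = 0.0179, 0.0895 after adjustment). The separation was thus seen as RPM and not in FPKM, and the RPM scaling moved the median of all tested genes to -0.35. The skeletal muscle genes Acta1 and Mylpf were at 7.11 ± 3.14 RPM (SD, n = 3) in AG and 0.171 ± 0.109 RPM (SD, n = 5) in AGM and at 2.64 ± 0.431 RPM (SD, n = 3) in AG and 0.172 ± 0.0576 RPM (SD, n = 5) in AGM (exact permutation p = 0.0179, 0.0895 after adjustment, for both), with no overlap of the groups.

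Among genes with at least 10 counts in every AG library that were called in the fit of the glands, in that of 24 libraries and without any single gland library, the 12 largest rises were Lep, Pnmt, A2m, Npy, Rbp4, Resp18, Angptl8, Cryba4, A530016L24Rik, Thrsp, Gal and Cdkn1c. A2m, a protease inhibitor of plasma, was at 0.0146, 0.0149 and 0.0268 FPKM in AG and 43.2, 15.2, 215, 52.1 and 98.4 FPKM in AGM (log2 fold change 5.89, adjusted p = 0.000661 without the filter by limma). Angptl8, an inhibitor of lipoprotein lipase made in liver and fat, was at 0.129, 0.176 and 0.381 FPKM in AG and 15.2, 57.3, 17.3, 41.6 and 77.3 FPKM in AGM (log2 fold change 4.87, adjusted p = 0.00039 without the filter). Thrsp, a lipogenic factor that ChREBP controls in liver and fat, was at 2.56, 10.5 and 17.9 FPKM in AG and 210, 224, 148, 194 and 322 FPKM in AGM (log2 fold change 4.54, SE 0.50, adjusted p = 0.000127). Cryba4, a lens crystallin, was at 1.02, 1.09 and 0.956 FPKM in AG and 55.9, 32.5, 80.7, 51.2 and 76 FPKM in AGM (log2 fold change 4.83, SE 0.27, adjusted p = 4.65e-06). Of the 12, Pnmt, Npy, Resp18 and Gal are chromaffin genes, Lep, Angptl8 and Thrsp are known from fat, and A2m and Rbp4 encode plasma proteins. AG library 1 was the lowest for Angptl8, Thrsp and Rbp4.

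The 12 largest falls were Klra7, Prg2, Matn4, Klra4, Car3, Acox2, Tpsb2, Prss35, Pygm, Slc6a4, Iqgap2 and Akr1d1. Matn4, a matrix protein, was at 23.2, 24.6 and 21.4 FPKM in AG and 0.00238, 0.0021, 0.00241, 0.00223 and 0.00231 FPKM in AGM (log2 fold change -4.58, adjusted p = 2.36e-08 without the filter by limma). Prg2, the major basic protein of eosinophils, was at 32.4, 27.7 and 17 FPKM in AG and 0.0147, 0.013, 0.0149, 0.0138 and 0.0143 FPKM in AGM (log2 fold change -4.67, adjusted p = 3.98e-06 without the filter). Klra7, a receptor of natural killer cells with many near-identical relatives, was at 44.2, 38.7 and 13.3 FPKM in AG and 0.00975, 0.00861, 0.00985, 0.00913 and 0.00944 FPKM in AGM. Tpsb2, a mast cell tryptase, was at 9.82, 8.27 and 5.69 FPKM in AG and 0.456, 0.799, 0.203, 0.188 and 0.247 FPKM in AGM (log2 fold change -2.68, adjusted p = 6.69e-05 without the filter). Slc6a4, the serotonin transporter, was at 10.2, 6.77 and 9.99 FPKM in AG and 0.822, 0.723, 1.14, 0.872 and 0.915 FPKM in AGM (log2 fold change -2.38, SE 0.13, adjusted p = 3.93e-06), and Iqgap2, a scaffold protein, was at 10.1, 9 and 9.29 FPKM in AG and 0.867, 1.47, 1.04, 1.22 and 0.833 FPKM in AGM (log2 fold change -2.33, SE 0.11, adjusted p = 1.44e-06). Matn4, Prg2, Klra7 and Klra4 reached no more than 0.0149 FPKM and Acox2 no more than 0.0258 FPKM in any AGM library.

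The 5 genes with the highest means among those below 1000 FPKM in every gland were different in AG and AGM. In AG they were Eef1a1, Ftl1, Car3, Cfd and Rplp1, genes of translation, iron storage and fat. In AGM they were Adh1, Ecrg4, Cyp11b1, Trim34b and Cyp11b2. Eef1a1 stood at 320, 311 and 317 FPKM in AG and 308, 302, 424, 342 and 316 FPKM in AGM and did not pass the test (limma, log2 fold change 0.09, or -0.39 when scaled to counts outside the extreme genes, adjusted p = 0.629). Adh1, an alcohol dehydrogenase abundant in the cortex, was at 191, 193 and 180 FPKM in AG and 820, 685, 994, 888 and 839 FPKM in AGM (log2 fold change 2.15, SE 0.15, adjusted p = 1.39e-05). Ecrg4, a secreted peptide precursor, was at 0.062, 0.0632 and 0.0522 FPKM in AG and 872, 629, 941, 603 and 784 FPKM in AGM, with at most 6 counts in AG. Trim34b was at 0.00504, 0.00513 and 0.00509 FPKM in AG and 0.00667, 363, 541, 981 and 899 FPKM in AGM, with 1 count in each AG library, so that AGM library 1 stood with AG.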

How the data were processed

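Per the study's methods and the labels, the authors trimmed poly(A), strand-specific reads (cutadapt 2.8), aligned them to mm39 (HISAT2 2.1.0, SAMtools 1.10), counted them (featureCounts 2.0.0), adjusted them for a batch effect with ComBat-seq and normalized them by TMM in edgeR 3.40. The authors deposited FPKM for 21833 protein-coding genes. The deposited table also held the authors' log2 fold changes, p-values and FDR against AG, which were not used. Columns were assigned to groups by name, and numbers of libraries follow column order only. Per the study, the libraries of a group came from different mice.

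Here limma 3.58.1 (R 4.3.3, eBayes with trend) was run on log2(FPKM + 1) of genes that reached 1 FPKM in 3 or more of the 8 gland libraries, with Benjamini-Hochberg adjustment. Fold changes on this scale understate changes of low genes. The fit was also run on simulated data as a check of the code, and its outcome is not reported here. Genes below the filter were compared as RPM by exact permutation. No 2 libraries agreed within counting noise (lowest chi-square per degree of freedom 10.9). Counting error is only part of the error of adjusted counts. Positions are from GENCODE M39 (GRCm39). Named genes were Mycn, Myc and Igf2bp1, the 12 largest rises and falls called in the main fit, in the fit of 24 libraries and in every fit without 1 library, the 6 largest AGM medians above 1000 FPKM, the 5 most abundant genes of each group, fixed markers and up to 4 members of each list by size of change. The genes Penk, Vgf, Hand1, Pcsk1, Cartpt, Slc6a2, Maoa, Tbx2, Gata3, Mrap, Gata4, Gata6, Agtr1a, Fdxr, Cyb5b, Srd5a1, Ncl, Odc1, Syp, Slc2a1, Igf1r, Ninj2, Slc17a1, Tex29, Ankrd7, Gm8126, Axin2, Ctnnb1, Cyb561, Dbp, Dkc1, Eno1, Gapdh, Gch1, Hand2, Kcnk9, Max, Nop2, Pa2g4, Paics, Per1, Per2, Pkm, Por, Stmn3, Trp53 and Uchl1 were named after their values were seen. Some genes are not reported here. Members, lists and tests were chosen with earlier results of these data known.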

Additional observations from a re-analysis of the deposited data

Results flagged for a closer look

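The named genes in the main fit numbered 253. In AGM, 10 of the named genes had a library whose distance from its nearest neighbour was a large part of the range of the 5 AGM libraries by Dixon's test. Chance gives such a gap in about 1 of 20 groups. AGM library 1 stood low for Klk1 (0.0114 FPKM) and Trim34b (0.00667 FPKM), and AGM library 2 stood apart for Inha (9.67 FPKM) and Mrpl44 (6.24 FPKM). AGM library 3 stood apart for Cyp11b1 (788 FPKM) and Ccl5 (0.571 FPKM), and AGM library 4 for Cela3b, which was listed at 0 there. AGM library 5 stood apart for Maoa (0.963 FPKM), Tfdp1 (1.51 FPKM) and Nat8 (4700 FPKM).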

How the results depend on the processing

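The count of 5154 called genes was 2979 with the spread of all 24 libraries, 8294 without a filter on low values and 3066 for genes with at least 1 FPKM in every gland library. The 934 genes called with a log2 fold change of 1 or more became 1835 with a pseudocount of 0.1, 380 with the filter on every library and 1846 by limma-voom on the recovered counts. The 85 genes above 1000 FPKM in AGM became 129 above 500 FPKM and 54 above 2000 FPKM. The share of tested genes with CACGTG before their start (8.78%) became 56.3% for the looser motif CANNTG. Leaving out 1 library at a time gave 4290 to 5445 called genes, 874 to 1040 with a log2 fold change of 1 or more, and 72 to 81 genes above 1000 FPKM. No paired analysis was made, because the AG and AGM glands came from mice of different genotype and form no pairs.

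The values without AGM libraries 4 and 5, those scaled to counts outside the extreme genes and those of genes with at least 10 counts in every AG library were chosen after seeing the data. The first called 4795 genes (855 by a log2 fold change of 1 or more) and the last 4945 (689). The scaling called 5582 genes, of which 23.8% were higher against 47.2% of the 5154. Under it the log2 fold changes of Mlx (-0.0596), Plvap (-0.0129), Inha (-0.11), Fdx1 (-0.28), Nr2f2 (-0.0958), Csf1r (-0.0939), Cdh5 (-0.37), Emcn (-0.24), Eef1a1 (-0.39), Ftl1 (-0.44), Gata3 (-0.28), Axin2 (-0.0146), Eno1 (-0.19), Pkm (-0.43) and Por (-0.26) turned below 0, and the calls of Srebf1 (adjusted p = 0.226), Nr1d1 (0.0753), Nr4a1 (0.0751), Cldn5 (0.0789), Hmga1 (0.324), C1qa (0.413) and Nop2 (0.572) were lost by limma. Pecam1 turned to 0.0135 with median-of-ratios factors. Without AGM libraries 4 and 5, Ttr turned to -0.45, Pecam1 to 0.00929, Cdh5 to -0.0454 and Ftl1 to -0.22, and Nr4a1 (adjusted p = 0.0918), Drosha (0.0985) and C1qa (0.0983) lost their calls. Without 1 library at a time the log2 fold change ranged from -0.282 to 0.0692 for Cd79a, -0.131 to 0.365 for Inha, -1.05 to 0.0973 for Adipoq, -0.0446 to 0.0238 for Pecam1, -0.0614 to 0.0791 for Cdh5, -0.148 to 0.157 for Ftl1, -0.0915 to 0.117 for Gata3 and -0.0456 to 0.101 for Pkm. Of 253 named genes, 197 kept direction and call with the spread of all 24 libraries, 47 lost the call and 9 gained it, and all 253 kept both with a pseudocount of 0.1. The causes were not tested. Counts were adjusted by the authors, so counting error could not be set for low genes.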
